A study of Mus musculus with 6 samples.

Results

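Mouse embryonic fibroblasts without Nrdc were compared with the same cells after Nrdc had been put back. Nrdc-/-WT iMEF, the Nrdc-/- line infected with a lentivirus that expresses wild-type Nrdc, had 2 RNA-seq libraries. Nrdc-/- iMEF, the uninfected knockout line, also had 2. Both groups are immortalized fibroblasts of the C57BL/6 strain, grew unsynchronized in low-glucose medium with serum, and carry the same knockout of the endogenous gene. The comparison asks which transcripts change when Nrdc is reintroduced into cells that lack it. Its members are all genes that averaged 0.5 RPKM (a read count scaled to transcript length and to library size) or more over these 4 libraries. These were 11476 of the 22369 genes listed, or 51.3%. Another 2 libraries of wild-type Nrdc+/+ iMEF entered the model to help estimate the spread, and no comparison with them is tested here.

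Nardilysin, the product of Nrdc, is a zinc metallopeptidase of the insulin-degrading enzyme family. Outside the nucleus it assists the ectodomain shedding of membrane-anchored proteins such as the EGF receptor ligand HB-EGF, and in the nucleus it binds dimethylated histone H3 and acts as a transcriptional coregulator. Several of the gene groups described below belong to known transcriptional programs. The unfolded protein response raises chaperones when proteins accumulate unfolded in the endoplasmic reticulum (ER), ATF4 raises amino acid genes when translation initiation is checked, SREBP proteins raise sterol and lipid enzymes, and SRF with its actin-sensing partners and YAP raise contractile and adhesion genes.

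Summed over the genes of the table, depth was 19538722 and 17077684 reads in Nrdc-/-WT and 16385565 and 17081955 reads in Nrdc-/- iMEF. The 2 libraries of a group correlated across genes at 0.9956 in Nrdc-/-WT and 0.9947 in Nrdc-/- iMEF, which describes the libraries, since genes are not independent replicates. The methods call the replicates biological replicates of cells, but nothing states that they came from separate infections, so the p-values measure the spread between these libraries only. No RNA-seq library of Nrdc-/- cells with an empty virus was analysed here, so Nrdc and the infection cannot be told apart. The sources used here do not state whether the infected cells are a clone. In bulk RNA, fewer cells of a type and less RNA per cell cannot be told apart either.

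Nrdc itself, which the table lists as Nrd1 (ENSMUSG00000053510, chr4:108673260-108734382 of mm9), was at 5.89 and 5.397 RPKM in the Nrdc-/-WT libraries, from 897 and 719 reads, against 1.53 and 1.51 RPKM in the Nrdc-/- libraries, from 189 and 195 reads. The groups did not overlap (log2 difference 1.74 ± 0.09 SE, limma adjusted p = 1.40e-06). Nrdc+/+ iMEF were at 27.9 and 28.9 RPKM. By these RNA values the transcript was restored in part. For the protein, the paper reports a level in Nrdc-/-WT iMEF similar to that of wild-type cells, by immunoblotting and immunocytochemistry. Some reads of the locus remained in the knockout line, where the sources used here do not state which exons were removed.

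Reintroduction of Nrdc went with a broad change in both directions. By limma, at an adjusted p below 0.05 and a change of 1.3-fold or more, 4965 genes were called, 43.3% of those tested. Nrdc-/-WT iMEF had 2314 genes (20.2%) at a higher and 2651 (23.1%) at a lower level than Nrdc-/- iMEF. In 9387 genes (81.8%) the 2 groups did not overlap. All 2314 genes called higher and all 2651 called lower were among them, so a lack of overlap adds nothing to a call. The median log2 fold change over all genes tested was -0.03. Among the genes called, 730 were at least 2-fold higher and 656 at least 2-fold lower, and 227 and 183 passed 4-fold. Counts of the gene groups below have to be read against these shares.

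The largest rises held 3 genes without a single read in Nrdc-/- iMEF. Dlk1, an imprinted transmembrane inhibitor of differentiation, was at 36.9 and 37.8 RPKM in the Nrdc-/-WT libraries and had 0 reads in both Nrdc-/- libraries, so it was at least 2494-fold higher if the Nrdc-/- group as a whole is given 3 reads, the limit that a count of 0 allows. Tmsb4x, whose product sequesters actin monomers, was at 24.5 and 25.2 RPKM against 0 reads, at least 402-fold higher. Hspb1, the small heat shock protein HSP27, was at 19.2 and 21.7 RPKM against 0 reads, at least 249-fold higher. No gene at 5 RPKM or more in Nrdc-/- iMEF was without reads in Nrdc-/-WT iMEF. The 3 genes were not alike in Nrdc+/+ iMEF, where Tmsb4x stood at 409 and 445 RPKM, while Dlk1 stood at only 0.365 and 0.548 RPKM and Hspb1 at 0.0953 and 0 RPKM.

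Npr3, the natriuretic peptide clearance receptor, was at 55.7 and 54.9 RPKM in Nrdc-/-WT against 0.99 and 1.21 RPKM in Nrdc-/- iMEF (log2 difference 5.37 ± 0.10 SE, limma adjusted p = 1.05e-08). Angpt1, the ligand angiopoietin 1, was at 11.02 and 10.1 RPKM against 0.163 and 0.13 RPKM, a log2 fold change of 4.77. In both genes the Nrdc-/- libraries were low and the Nrdc-/-WT libraries far above them. Another 9 of the 15 largest rises were the collagen IV chains, Cdkn2a and its neighbours Cdkn2b and Mtap, the membrane protein gene Basp1, the myosin light chain gene Myl9, Smpdl3b, a phosphodiesterase of membrane lipids, and Dem1, with log2 fold changes of 4.19 to 6.54.

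The largest falls included transport and metabolic genes. Slc2a5, the fructose transporter GLUT5, was at 0.0414 and 0 RPKM in Nrdc-/-WT, from 3 and 0 reads, against 24.96 and 25.9 RPKM in Nrdc-/- iMEF (log2 difference -6.57 ± 0.11 SE, limma adjusted p = 7.21e-09). Tgm5, an epidermal transglutaminase, was at 0.238 and 0.272 RPKM against 22.8 and 25.04 RPKM, a log2 fold change of -5.58. Car6, a secreted carbonic anhydrase, was at 0.388 and 0.177 RPKM against 20.7 and 18.95 RPKM, a log2 fold change of -5.26. In these genes the Nrdc-/-WT libraries were near background. Car9, a membrane carbonic anhydrase that hypoxia induces, fell, with a log2 difference of -3.87, as did Rtn4r, the Nogo receptor, at -4.61, Sparcl1, a matricellular glycoprotein, at -5.07, and Cdsn, the adhesion protein corneodesmosin, at -4.77. Agt, at -5.76, Spp1, at -4.18, Dcn and 5 genes of the X chromosome, most of which are described further below, completed the 15 largest falls.

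**Figure D1:**
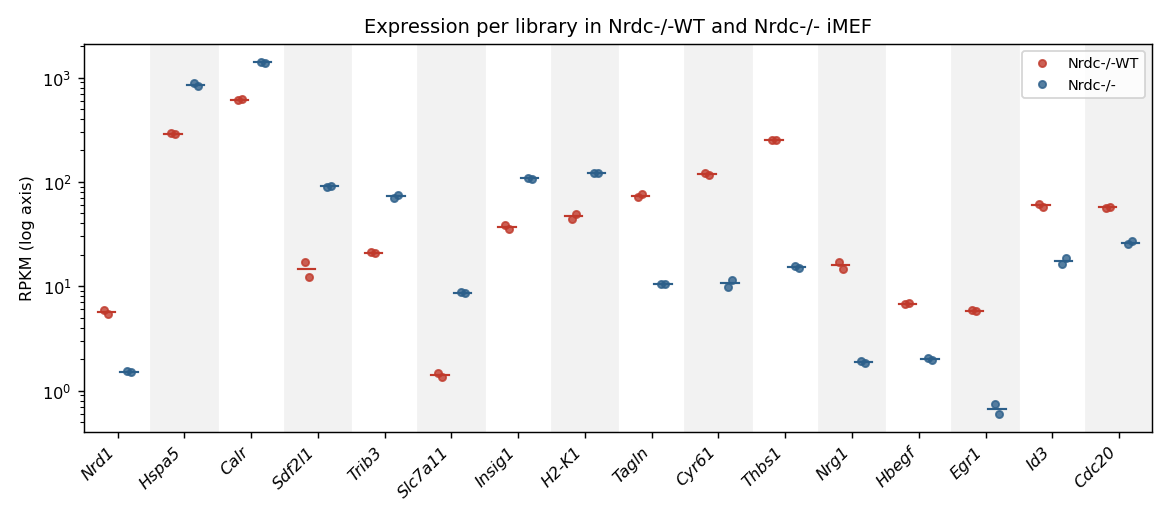
RPKM on a log axis in each library (points) with the group mean (bar) for 16 genes described in the text, with Nrdc-/-WT iMEF left of Nrdc-/- iMEF for each gene. In all 16 genes, as in every gene called, both libraries of one group lie above both libraries of the other. Examples are Hspa5 at 292 and 290.1 RPKM against 881 and 834 RPKM, and Thbs1 at 255 and 252 RPKM against 15.5 and 14.9 RPKM.

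ER chaperones were lower after Nrdc was put back. Of 25 tested genes for chaperones, folding enzymes and degradation factors of the ER, 22 fell, none rose and 3 were not called, with a median log2 fold change of -1.14 beside -0.03 over all genes tested. The summed level of the list was 3120 and 3151 RPKM in Nrdc-/-WT against 6215 and 6075 RPKM in Nrdc-/- iMEF. Hspa5 encodes BiP, the central chaperone of the ER lumen. It was at 292 and 290.1 RPKM in Nrdc-/-WT against 881 and 834 RPKM in Nrdc-/- iMEF (log2 difference -1.56 ± 0.07 SE, limma adjusted p = 7.21e-07). Calr, the lectin chaperone calreticulin, was at 606 and 626 RPKM against 1422 and 1388 RPKM, a log2 fold change of -1.19. Sdf2l1, a partner of BiP complexes, had the largest fall of the list, at 17.1 and 12.3 RPKM against 90.2 and 91.5 RPKM, a log2 fold change of -2.62. None of these genes overlapped between the groups, and the spread between replicates was small beside the difference.

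The fall extended to cochaperones and to factors of degradation. Among cochaperones and secreted ER proteins, Hyou1, an HSP70-type protein, fell by 2.05 on the log2 scale, Manf by 1.99, Creld2 by 1.65 and Dnajb11 by 1.58. Of the degradation factors, Sel1l, the scaffold of the HRD1 ubiquitin ligase, fell by 1.45, Herpud1 by 1.19, Edem1 by 1.04 and Syvn1, the ligase itself, by 0.47. Of the transducers of the response, the transcription factor gene Xbp1 was at 48.1 and 47.2 RPKM in Nrdc-/-WT against 92.9 and 87.7 RPKM in Nrdc-/- iMEF, a fall by 0.92. Further transducers outside the list, named after their values had been seen, were Atf6 at 5.71 and 5.52 RPKM against 18.3 and 17.4 RPKM (log2 fold change -1.63) and the kinase gene Eif2ak3, or PERK, at 10.4 and 10.4 RPKM against 16.3 and 15.9 RPKM (log2 fold change -0.61).

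Many of these genes carry the ER stress element, the site through which ATF6 and XBP1 act with NF-Y, in their promoter. RefSeq promoter windows of GRCm38.p6 reached from 250 bases before to 50 after the annotated start and were found for 8878 of the genes tested. The element was searched as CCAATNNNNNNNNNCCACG on both strands. It was present in 9 of 22 list members with a window (40.9%), in 0.158% of the genes tested (14 of 8878) and in 0.137% of all 27025 genes with a window. Of the 14 tested genes that hold it, 10 were lower, 1 was higher and 3 were not called, where 23.1% of all genes tested were lower. The 9 list members are all among the 10, so this count mostly repeats the fall of the list. Outside the list, Alg12, a mannosyltransferase of N-glycan assembly, fell by 0.85 on the log2 scale. Adcy3, an adenylate cyclase, rose by 1.79, and Hnrnpa3, Zfp57 and Pan2 were not called. A match describes letters in a window and is no evidence of binding. The 250 bases before the start of Hspa5, and the surroundings of the element in 5 other chaperone genes that fell, are shown on the strand of the gene with the match in capitals. Where the match lies on the other strand, the capitals hold its reverse complement. Hsp90b1, the ER form of HSP90, holds another match elsewhere in its window.
Hspa5, chr2:34771840-34772089, plus strand, match from 65 bases before the start: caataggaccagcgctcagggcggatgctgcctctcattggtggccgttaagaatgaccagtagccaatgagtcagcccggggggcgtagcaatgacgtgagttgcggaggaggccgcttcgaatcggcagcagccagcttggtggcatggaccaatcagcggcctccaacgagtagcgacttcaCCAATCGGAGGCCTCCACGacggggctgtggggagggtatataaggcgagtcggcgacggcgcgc
Creld2, chr15:88819500-88819558, plus strand, match on the other strand: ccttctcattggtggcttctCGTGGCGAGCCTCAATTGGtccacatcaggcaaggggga
Calr, chr8:84847055-84847113, minus strand, match on the other strand: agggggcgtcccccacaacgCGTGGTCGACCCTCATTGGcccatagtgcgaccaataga
Hsp90b1, chr10:86705618-86705676, minus strand: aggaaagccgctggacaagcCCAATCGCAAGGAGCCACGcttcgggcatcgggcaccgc
Pdia6, chr12:17266471-17266529, plus strand: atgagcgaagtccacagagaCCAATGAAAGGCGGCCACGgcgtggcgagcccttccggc
Canx, chr11:50325780-50325838, minus strand: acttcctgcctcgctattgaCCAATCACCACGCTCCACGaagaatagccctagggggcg

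**Figure D2:**
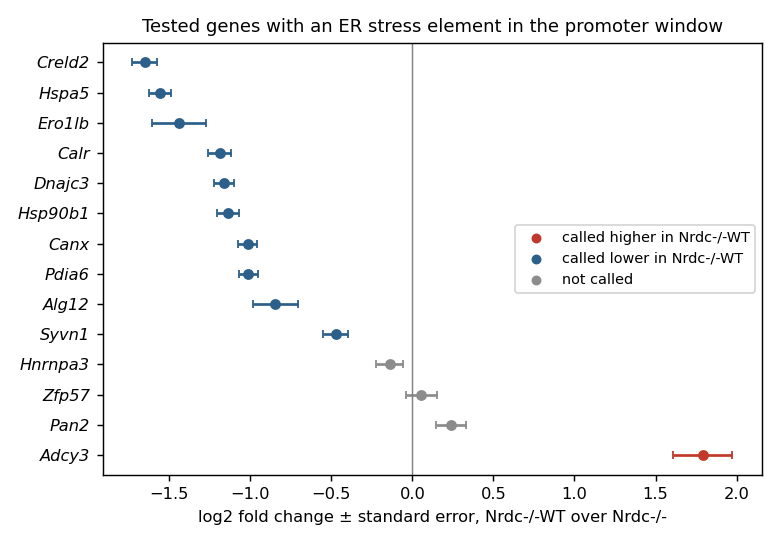
Log2 fold change of Nrdc-/-WT over Nrdc-/- iMEF with its standard error for the 14 tested genes whose promoter window holds the ER stress element, coloured by call. The points from Creld2 at -1.65 to Syvn1 at -0.47 were called lower, Adcy3 at 1.79 was called higher, and Hnrnpa3, Zfp57 and Pan2 were not called.

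The ATF4 amino acid response was lower as well. Of 23 tested members, 20 fell, 1 rose and 2 were not called, with a median of -0.83. Atf4 itself was at 276 and 281 RPKM in Nrdc-/-WT against 473 and 487 RPKM in Nrdc-/- iMEF (log2 difference -0.79 ± 0.07 SE, limma adjusted p = 2.63e-05). Slc7a11, the cystine importer, was at 1.49 and 1.36 RPKM against 8.73 and 8.66 RPKM, a log2 fold change of -2.42. Trib3, a pseudokinase that restrains ATF4, was at 21.4 and 20.6 RPKM against 70.7 and 74.8 RPKM, a log2 fold change of -1.78. All 4 libraries kept the order of the groups in each of these genes. Ddit3, the transcription factor CHOP, fell by 1.49 on the log2 scale, Atf3 by 2.40, Asns, asparagine synthetase, by 0.90, Psph of serine synthesis by 1.32 and Slc7a5, the leucine importer LAT1, by 1.31. The member that rose was Vldlr, the very low density lipoprotein receptor, at 0.993 and 0.963 RPKM in Nrdc-/-WT against 0.253 and 0.137 RPKM in Nrdc-/- iMEF.

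The composite element that binds ATF4 with C/EBP proteins was searched as TGATGNAA on both strands. It was present in 8 of 21 list members with a window (38.1%) and in 2.76% of the genes tested. Of the 245 tested genes that hold it, 78 were lower and 43 higher, where 23.1% of all genes tested were lower and 20.2% higher. The stretches around it are shown for 3 genes that fell and for Vldlr, which rose and holds the same letters.
Slc7a11, chr3:50443652-50443699, minus strand, with a match on each strand: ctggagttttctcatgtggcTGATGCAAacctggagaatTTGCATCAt
Atf3, chr1:191183416-191183463, minus strand, match on the other strand: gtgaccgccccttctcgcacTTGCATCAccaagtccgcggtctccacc
Asns, chr6:7693210-7693252, minus strand: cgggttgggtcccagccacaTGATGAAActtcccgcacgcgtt
Vldlr, chr19:27216800-27216847, plus strand, match on the other strand: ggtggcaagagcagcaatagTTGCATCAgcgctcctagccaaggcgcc

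Cytosolic tRNA synthetases, which charge tRNAs with amino acids, shared the fall in part. Of 20 tested, 10 fell, 1 rose and 9 were not called, with a median of -0.39. Wars, the tryptophan enzyme, was at 16.2 and 16.4 RPKM in Nrdc-/-WT against 35.1 and 35.5 RPKM in Nrdc-/- iMEF (log2 difference -1.100 ± 0.06 SE, limma adjusted p = 1.63e-06). Eprs fell by 0.77 on the log2 scale and Nars by 0.73. Qars, the glutamine enzyme, was at 29.6 and 30.2 RPKM against 21.9 and 23.5 RPKM and was the member that rose, by 0.396, a call lost at 0.35 without Nrdc-/- replicate 1.

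Enzymes of cholesterol and fatty acid synthesis fell when Nrdc was reintroduced. Of 22 tested genes of cholesterol synthesis and its control, 19 fell and none rose, with a median of -0.99. Insig1, which retains the SREBP precursor in the ER, was at 38.5 and 35.4 RPKM in Nrdc-/-WT against 109.8 and 106 RPKM in Nrdc-/- iMEF (log2 difference -1.54 ± 0.06 SE, limma adjusted p = 5.20e-07). Mvd, the decarboxylase of the mevalonate pathway, was at 16.2 and 15.9 RPKM against 38.4 and 46.2 RPKM, a log2 fold change of -1.38. The fall ran through the pathway, with Idi1 at -1.05, Fdps at -1.02, Sqle at -0.83, Lss at -1.32, Cyp51 at -1.09 and Hsd17b7 at -1.57 on the log2 scale. Srebf2, the transcription factor of the pathway, was at 90.5 and 93.96 RPKM against 79.3 and 84.6 RPKM and was not called (log2 difference 0.17 ± 0.06 SE, limma adjusted p = 0.0469).

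Of 13 genes of fatty acid synthesis and desaturation, 10 fell and none rose, with a median of -0.62. Acss2, which makes acetyl-CoA from acetate, was at 2.299 and 2.38 RPKM in Nrdc-/-WT against 9.75 and 9.56 RPKM in Nrdc-/- iMEF (log2 difference -1.94 ± 0.14 SE, limma adjusted p = 8.56e-06). Scd1, a stearoyl-CoA desaturase, was at 44.5 and 43.9 RPKM against 104 and 107 RPKM, a log2 fold change of -1.25. Fasn, fatty acid synthase, fell by 0.41 on the log2 scale, under the fold threshold at -0.36 when libraries were centred on their median or without Nrdc-/- replicate 2. Acaca, acetyl-CoA carboxylase, fell by 0.84 and Elovl6, an elongase, by 1.02. The sterol element searched as TCACNCCAC was in 0 of 15 cholesterol genes with a window and in 1.28% of the genes tested, while the NF-Y box CCAAT was in 15 of 15 and in 44.6%. That box was also in 83.3% of 24 mitosis genes with a window, a list in which no gene was called lower. Of the 3963 tested genes that hold it, 961 were lower and 782 higher, where 23.1% of all genes tested were lower and 20.2% higher.

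Genes of MHC class I antigen presentation were lower. Of 10 tested, 7 fell and 1 rose, with a median of -0.77, where Calr also counts among the ER chaperones. H2-K1, a classical class I heavy chain, was at 44.5 and 49.4 RPKM in Nrdc-/-WT against 121 and 122 RPKM in Nrdc-/- iMEF (log2 difference -1.37 ± 0.07 SE, limma adjusted p = 1.55e-06). B2m, the invariant light chain, was at 638 and 555 RPKM against 1411 and 1330.0 RPKM, a log2 fold change of -1.202. Both groups stayed apart in each gene. Heavy chain genes are close copies and can share reads. Psmb10, a subunit of the immunoproteasome, was the member that rose, by 0.48.

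**Figure D3:**
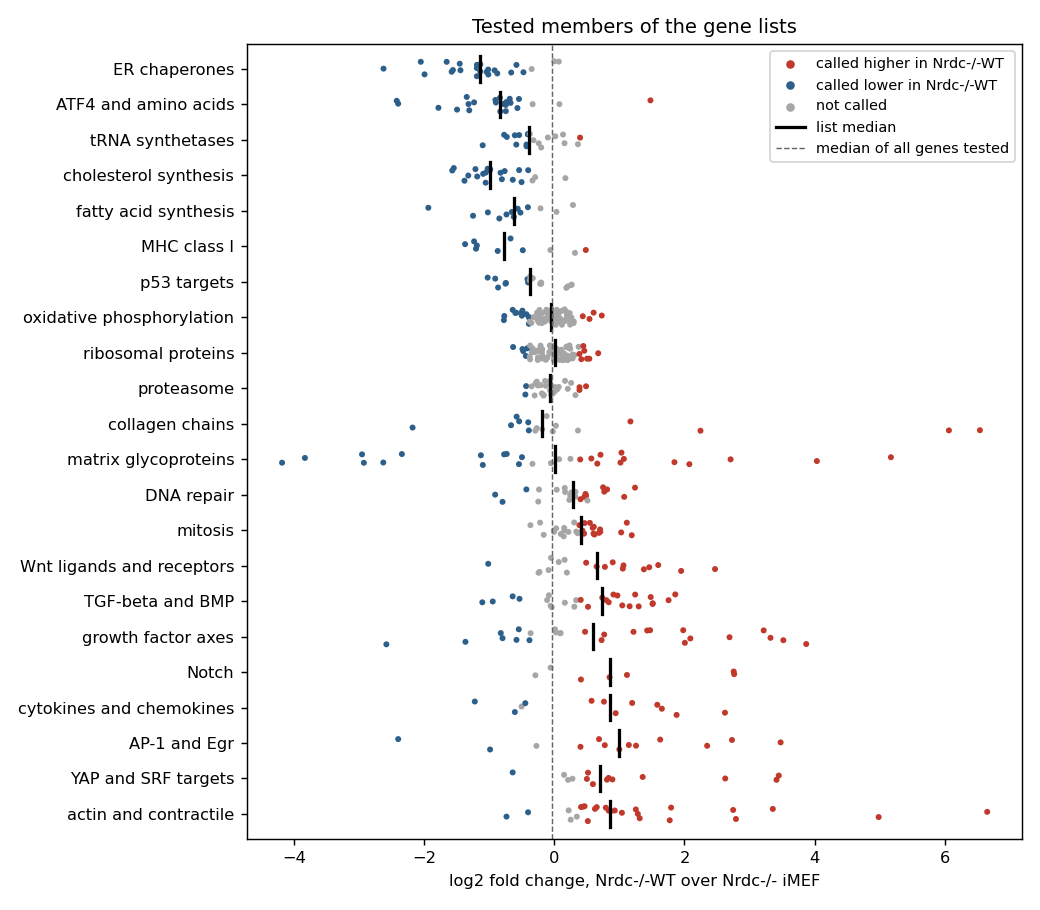
Log2 fold change of Nrdc-/-WT over Nrdc-/- iMEF for each tested member (points, coloured by call) of 22 gene lists, with the list median (black bar) and the median of all genes tested (dashed line, -0.03). The ER chaperones lie around -1.14 and cholesterol synthesis around -0.99, the ribosomal proteins around 0.02, and the actin and contractile genes around 0.85. Some genes are on 2 lists.

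Genes of the actin cytoskeleton rose when Nrdc was put back. Of 26 tested genes of smooth-muscle-type contraction and the actin cytoskeleton, 21 rose and 2 fell, with a median of 0.85. Tagln, the actin-binding protein transgelin, was at 71.3 and 76.6 RPKM in Nrdc-/-WT against 10.4 and 10.5 RPKM in Nrdc-/- iMEF (log2 difference 2.79 ± 0.07 SE, limma adjusted p = 4.71e-08). Acta2, smooth muscle actin, was at 184 and 181 RPKM against 52.5 and 52.3 RPKM, a log2 fold change of 1.79. Cnn1, the thin-filament protein calponin 1, was at 11.3 and 11.5 RPKM against 1.34 and 1.63 RPKM, a log2 fold change of 2.75. The libraries of the 2 groups did not overlap in these genes. Abundant cytoskeletal genes moved by less, with Myh9, non-muscle myosin IIA, at 1.28, Tpm1 at 1.25, Vcl, vinculin, at 0.93 and Actb at 0.47 on the log2 scale. The genes that fell were Mylk, the kinase of the myosin light chain, at -0.73, and Tagln2 at -0.403. Neither call was firm, since Mylk had -0.59 without Nrdc-/-WT replicate 1 and -0.58 without Nrdc-/- replicate 1, and Tagln2 -0.28 without Nrdc-/- replicate 2 and -0.36 with median-centred libraries, none of them called. Tmsb4x, with no reads in the Nrdc-/- libraries, and Myl9, with 4 and 1, stood apart from the rest of the list by the size of their rise.

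The CArG box, the site of SRF, was searched by its consensus on both strands. It was present in 5 of 23 list members with a window (21.7%) and in 1.63% of the genes tested. Of the 145 tested genes that hold it, 48 were higher and 29 lower, where 20.2% of all genes tested were higher and 23.1% lower. Among the list members with the box, Actg1 rose by 0.41 and Myl6, at 0.25, was not called. Acta2 and Cnn1, which rose, had no match in their window. The stretches around the box are shown for the contractile genes Myl9, Cnn2 and Vcl, which rose.
Myl9, chr2:156775283-156775332, plus strand: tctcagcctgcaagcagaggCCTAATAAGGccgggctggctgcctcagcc
Cnn2, chr10:79988524-79988573, plus strand: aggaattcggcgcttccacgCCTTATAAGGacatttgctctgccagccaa
Vcl, chr14:20929151-20929200, plus strand: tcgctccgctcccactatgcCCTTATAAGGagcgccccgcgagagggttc

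Targets of YAP and SRF moved in the same direction. The list of targets also holds the regulator genes Yap1 and Wwtr1, which rose, and Srf, which was not called. Of its 14 tested members, 10 rose and 1 fell, with a median of 0.70. Cyr61, a matricellular protein and classical YAP target, was at 121 and 116 RPKM in Nrdc-/-WT against 9.78 and 11.5 RPKM in Nrdc-/- iMEF (log2 difference 3.45 ± 0.09 SE, limma adjusted p = 4.71e-08). Ctgf, a relative of Cyr61, was at 40.5 and 38.6 RPKM against 3.21 and 3.78 RPKM, a log2 fold change of 3.41. Ankrd1, a nuclear ankyrin repeat protein, was at 1.99 and 1.88 RPKM against 0.196 and 0.0313 RPKM, a log2 fold change of 2.63. Ankrd1 stood at 194 and 196 RPKM in Nrdc+/+ iMEF, far above both groups. Yap1 itself was at 18.1 and 18.4 RPKM in Nrdc-/-WT against 12.8 and 12.5 RPKM in Nrdc-/- iMEF, a rise by 0.52. Tgfb2, a ligand of the TGF-beta family, was the member that fell, by 0.64.

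Immediate-early transcription factors were higher for the most part. Of 13 tested AP-1 and Egr genes, 10 rose and 2 fell, with a median of 1.00. Egr1, a zinc finger factor induced by growth factors, was at 5.92 and 5.72 RPKM in Nrdc-/-WT against 0.748 and 0.591 RPKM in Nrdc-/- iMEF (log2 difference 2.73 ± 0.12 SE, limma adjusted p = 6.52e-07). Fos was at 1.86 and 1.89 RPKM against 0.147 and 0.188 RPKM, a log2 fold change of 2.35. Junb was at 139 and 159.9 RPKM against 66.4 and 68.3 RPKM, a log2 fold change of 1.14. Fos and Egr1 are low in both groups by level, whereas Junb is abundant. Egr3 rose by 3.48 with 0 and 4 reads in the Nrdc-/- libraries, and Jun by 1.26. The genes that fell were Atf3, named above among the ATF4 targets, and Jund, at 16.8 and 15.8 RPKM against 32.8 and 32.4 RPKM.

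Some feedback regulators of the ERK pathway, which are on no list, were picked after their values had been seen. They do not stand for the whole group. Dusp6, an ERK phosphatase, was at 8.44 and 8.72 RPKM in Nrdc-/-WT against 1.24 and 1.26 RPKM in Nrdc-/- iMEF, or on the log2 scale 2.56. Dusp4, another phosphatase of the family, rose by 2.55, Spry2, an inhibitor of receptor tyrosine kinase signalling, by 1.53 and the Ets factor Etv5 by 1.44.

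Genes of proteins that nardilysin works with were called about as often as all genes tested, of which 43.3% were called. Of 21 tested genes for M16 peptidases, sheddases, their substrates and corepressor subunits, 7 rose, Nrdc included, 2 fell and 12 were not called, with a median of 0.19. Nrg1, the ERBB ligand neuregulin 1, was at 17.02 and 14.7 RPKM in Nrdc-/-WT against 1.94 and 1.83 RPKM in Nrdc-/- iMEF (log2 difference 2.91 ± 0.11 SE, limma adjusted p = 3.22e-07). Hbegf, the shed EGF receptor ligand, was at 6.74 and 6.84 RPKM against 2.05 and 1.98 RPKM, a log2 fold change of 1.64. Egfr, the receptor of HB-EGF, was at 18.8 and 17.4 RPKM against 9.13 and 9.18 RPKM, a log2 fold change of 0.96. The 3 genes were called higher, while the ligand gene Ereg, at 0.38, and the receptor gene Erbb2, at 0.07, were not called. Ereg lay at the fold threshold and was called higher at 0.42 with median-centred libraries and at 0.379 without Nrdc-/- replicate 2. App, the amyloid precursor, rose by 0.803. Of the peptidases, Ide, the insulin-degrading enzyme, was at 18.2 and 16.5 RPKM in Nrdc-/-WT against 33.98 and 33.4 RPKM in Nrdc-/- iMEF, a fall by 0.95. Adam17, the sheddase also called TACE, fell by 0.45. Hdac3, a histone deacetylase, was not called, at 0.27.

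Among ligands of other receptor kinases more genes rose than fell. Of 26 tested genes of the PDGF, FGF, IGF, HGF, VEGF and neurotrophin axes, 14 rose and 7 fell, with a median of 0.60. Igfbp2, a binding protein of insulin-like growth factors, was at 156 and 169 RPKM in Nrdc-/-WT against 13.7 and 14.2 RPKM in Nrdc-/- iMEF (log2 difference 3.52 ± 0.08 SE, limma adjusted p = 3.41e-08). Fgf7, or keratinocyte growth factor, was at 45.8 and 43.9 RPKM against 11.3 and 10.7 RPKM, a log2 fold change of 2.01. Hgf, hepatocyte growth factor, was at 3.17 and 2.84 RPKM against 0.021 and 0.14 RPKM, a log2 fold change of 3.32. Igfbp2 had 0 reads in both Nrdc+/+ libraries, so its level in Nrdc-/-WT iMEF was higher than in either other group. Fgf18 rose by 3.87, Fgf1 by 3.22 and Igf1 by 2.69. Fgf10 went the other way, at 0.775 and 1.09 RPKM in Nrdc-/-WT against 6.96 and 6.58 RPKM in Nrdc-/- iMEF, and Vegfa fell by 0.80 and Igf2r, the clearance receptor of IGF2, by 1.36. The receptor genes Pdgfra, at 55.3 and 53.2 RPKM against 55.4 and 51.3 RPKM, and Pdgfrb, at 34.3 and 33.5 RPKM against 46.1 and 41.3 RPKM, were not called, though Pdgfrb was called lower at -0.38 without Nrdc-/-WT replicate 1 and at -0.44 without Nrdc-/- replicate 2.

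Of 27 tested genes of TGF-beta, BMP and activin signalling, 16 rose and 4 fell, with a median of 0.74. The ligand Bmp4 was at 25.1 and 25.1 RPKM in Nrdc-/-WT against 9.07 and 8.26 RPKM in Nrdc-/- iMEF (log2 difference 1.51 ± 0.08 SE, limma adjusted p = 2.26e-06). The receptor Tgfbr2 was at 53.5 and 51.2 RPKM against 22.3 and 20.1 RPKM, a log2 fold change of 1.297. Id3, a helix-loop-helix inhibitor that BMP signalling induces, was at 62.03 and 57.6 RPKM against 16.5 and 18.7 RPKM, a log2 fold change of 1.76. The groups did not overlap in these 3 genes. Tgfb1 rose by 1.24, its latency protein Ltbp1 by 1.51 and the feedback inhibitor Smad7 by 1.48. The members that fell were Tgfb2, the receptor genes Acvr2a, by 1.11, and Tgfbr1, by 0.53 (not called at -0.42 without Nrdc-/- replicate 1), and the coreceptor gene Tgfbr3, by 0.95.

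Of 19 tested Wnt ligands, receptors and antagonists, 11 rose and 1 fell, with a median of 0.65. Wnt5a, a ligand of noncanonical signalling, was at 31.2 and 31.6 RPKM in Nrdc-/-WT against 14.4 and 15.5 RPKM in Nrdc-/- iMEF (log2 difference 1.06 ± 0.08 SE, limma adjusted p = 1.41e-05). The receptor Fzd6 was at 29.2 and 27.6 RPKM against 7.08 and 7.26 RPKM, a log2 fold change of 1.95. Of the coreceptors, Lrp6 rose by 0.65 and Lrp5 fell by 1.02. Of 7 tested Notch pathway genes, 5 rose and none fell, with a median of 0.85. The receptor Notch3 was at 3.49 and 3.35 RPKM against 0.28 and 0.302 RPKM, Notch2 at 41.1 and 42.4 RPKM against 23.8 and 22.4 RPKM, and the target gene Hes1, a transcriptional repressor, at 2.096 and 2.89 RPKM against 0.142 and 0.162 RPKM, with log2 fold changes of 2.76, 0.85 and 2.76. Lfng, the fringe glycosyltransferase, rose by 1.12.

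Of 12 tested cytokines and chemokines, 8 rose and 3 fell, with a median of 0.85. Cxcl1, a neutrophil attractant, was at 19.9 and 15.97 RPKM in Nrdc-/-WT against 3.64 and 1.97 RPKM in Nrdc-/- iMEF (log2 difference 2.62 ± 0.26 SE, limma adjusted p = 5.10e-05). Cxcl12, the stromal ligand of CXCR4, was at 30.2 and 30.2 RPKM against 13.2 and 12.9 RPKM, a log2 fold change of 1.196. Cxcl5 rose by 1.58 and Ccl5 by 1.65, while Ccl7, a monocyte attractant, fell by 1.22. In innate sensing, 7 of 17 tested genes rose and 3 fell, with a median of 0.35. Tmem173, the adaptor STING, was at 7.42 and 7.96 RPKM against 0.954 and 1.27 RPKM, a log2 fold change of 2.55.

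The extracellular matrix changed in both directions. Among 28 tested matrix glycoproteins and proteoglycans, 12 rose and 12 fell, with a median of 0.01, so that 24 of 28 were called where 43.3% of all genes tested were. Thbs1, the matricellular protein thrombospondin 1, was at 255 and 252 RPKM in Nrdc-/-WT against 15.5 and 14.9 RPKM in Nrdc-/- iMEF (log2 difference 4.03 ± 0.07 SE, limma adjusted p = 7.74e-09). Efemp1, a fibulin of elastic fibres, was at 9.58 and 9.79 RPKM against 0 and 0.0542 RPKM, a log2 fold change of 5.17. Cthrc1, a secreted collagen-repeat protein, was at 490.2 and 472 RPKM against 76.4 and 70.6 RPKM, a log2 fold change of 2.71. The genes that fell included small leucine-rich proteoglycans, which bind collagen fibrils. Dcn, decorin, was at 28.4 and 24.5 RPKM in Nrdc-/-WT against 389 and 368 RPKM in Nrdc-/- iMEF, Aspn, asporin, at 4.9998 and 3.54 RPKM against 33.7 and 33.6 RPKM, and Fmod, fibromodulin, at 0.312 and 0.47 RPKM against 3.71 and 3.65 RPKM. Laminin chains were split, with Lamb1 at 1.85, Lamc1 at -1.098 and Lama4 at -2.95 on the log2 scale.

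Of 17 tested collagen chains, 4 rose and 6 fell. Col4a1 and Col4a2, the paired chains of basement membrane collagen, lie head to head on chromosome 8 and moved together. Col4a1 was at 23.8 and 25.2 RPKM in Nrdc-/-WT, against 0.00848 and 0.0243 RPKM from 1 and 3 reads in Nrdc-/- iMEF, and Col4a2 at 16.6 and 18.01 RPKM against 0.00873 and 0.0167 RPKM from 1 and 2 reads, with log2 fold changes of 6.54 and 6.06. Reads of their overlapping ends cannot be told apart without strand. Col8a1, a short-chain collagen, rose by 2.25, whereas Col6a3 was at 54.6 and 59.9 RPKM in Nrdc-/-WT against 260.2 and 259 RPKM in Nrdc-/- iMEF, a fall by 2.18. The fibril-forming Col1a1 was not called, at 401 and 418 RPKM against 315 and 322 RPKM, though it was called higher at 0.39 without Nrdc-/-WT replicate 1. Nor was Col3a1 called, at 258 and 282 RPKM against 269.5 and 262 RPKM. When libraries were centred on their median, 5 chains were higher and 4 lower, and with the running median of neighbouring genes taken off, described further below, 8 were higher and 5 lower, so the balance of this list has no fixed direction.

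Of 14 tested matrix proteases and their inhibitors, 5 rose and 5 fell, or 5 and 4 when libraries were centred on their median. Mmp14, a membrane-bound collagenase, was at 102 and 101 RPKM in Nrdc-/-WT against 316 and 292 RPKM in Nrdc-/- iMEF (log2 difference -1.58 ± 0.06 SE, limma adjusted p = 4.25e-07). Timp1, a secreted metalloprotease inhibitor, was at 324 and 328 RPKM against 112 and 115 RPKM, a log2 fold change of 1.52. Timp3 rose by 1.43, and the protease genes Adamts12 and Adamts2 fell by 2.19 and 1.49. Of 11 tested integrins, 5 rose and 1 fell. Itgb3, a chain of the vitronectin receptor, was at 23.2 and 23.1 RPKM in Nrdc-/-WT against 6.04 and 5.33 RPKM in Nrdc-/- iMEF, or on the log2 scale 1.98, and Itga5, a chain of the fibronectin receptor, fell by 0.61.

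Genes of mitosis were higher by small steps. Of 30 tested, 16 rose, none fell and 14 were not called, with a median of 0.41. Cdc20, which activates the ubiquitin ligase of anaphase, was at 56.6 and 57.2 RPKM in Nrdc-/-WT against 25.5 and 26.9 RPKM in Nrdc-/- iMEF (log2 difference 1.11 ± 0.07 SE, limma adjusted p = 3.99e-06). Cenpe, a kinetochore motor, was at 22.6 and 22.8 RPKM against 9.91 and 9.74 RPKM, a log2 fold change of 1.19. Ndc80, a kinetochore subunit, was at 26.3 and 24.7 RPKM against 12.2 and 12.5 RPKM, a log2 fold change of 1.03. Plk1, a mitotic kinase, rose by 0.704 and Aurka by 0.61. Top2a, at 56.5 and 57.9 RPKM against 46.5 and 45.9 RPKM, was higher by 0.31 but stayed below the fold threshold. The rise was not shared by all mitotic genes. Birc5 was at -0.007, Aurkb at -0.004 and Cdc25b at -0.37 on the log2 scale, none of them called. Of 24 tested genes of homologous recombination and related repair, 9 rose and 3 fell, with a median of 0.29. Atr, a checkpoint kinase, fell by 0.91.

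Inhibitors of cyclin-dependent kinases went in opposite directions. Cdkn2a, which encodes p16Ink4a and p19Arf, was at 415 and 437 RPKM in Nrdc-/-WT, from 10360 and 9544 reads, against 5.78 and 5.75 RPKM in Nrdc-/- iMEF, from 117 and 122 reads. Cdkn1a, which encodes p21, was at 6.48 and 5.98 RPKM against 26.4 and 29.7 RPKM (log2 difference -2.13 ± 0.09 SE, limma adjusted p = 6.34e-07). Cdkn2d fell by 0.61 on the log2 scale, a call lost at -0.48 without Nrdc-/- replicate 2, and Cdkn1b, at 25.5 and 25.9 RPKM against 26.1 and 24.1 RPKM, and Cdkn2c were not called. Of 17 tested genes, Trp53 and its targets, 7 fell and none rose, with a median of -0.37. Ccng1, a cyclin that p53 induces, was at 19.99 and 18.998 RPKM in Nrdc-/-WT against 35.6 and 30.5 RPKM in Nrdc-/- iMEF, a fall by 0.75, and the proapoptotic genes Bbc3 and Bax fell by 0.91 and 0.74. Trp53 itself, at 46.1 and 47.6 RPKM against 40.95 and 41.4 RPKM, was not called. Mdm2, its ubiquitin ligase, lay at the threshold with -0.38 and was called lower at -0.41 without Nrdc-/-WT replicate 2 and at -0.38 without Nrdc-/- replicate 2.

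Around Cdkn2a, the largest rises among the genes tested were those of its nearest neighbours. Within 1 Mb of it, 6 genes were tested. Mtap and Cdkn2b, the nearest neighbours, rose by 5.61 and 5.805 on the log2 scale. Beyond the type I interferon genes, none of which reached the filter, Klhl9 was at 27.3 and 26.4 RPKM in Nrdc-/-WT against 17.5 and 16.3 RPKM in Nrdc-/- iMEF and rose by only 0.66, Ptplad2 rose by 1.25, and BC057079, at 3.43 and 3.39 RPKM against 3.32 and 3.56 RPKM, was not called. Klhl9, Ptplad2 and BC057079 all lie on the side of Mtap, with Klhl9 the closest to Cdkn2a at 552 kb. On the other side no gene beyond Cdkn2b reached the filter, so the extent of the change there is not known. The Nrdc-/- libraries kept 42 and 68 reads of Mtap and 22 and 31 reads of Cdkn2b. A difference in DNA copy number at this locus was not tested.

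Housekeeping machinery stayed near the median of all genes. Of 77 ribosomal protein genes, 7 rose and 5 fell, with a median of 0.02. Of 32 proteasome genes, 3 rose and 2 fell, with a median of -0.06, and of 74 nuclear genes of oxidative phosphorylation, 4 rose and 12 fell, with a median of -0.04. Their summed levels were close between the groups, at 40227 and 40532 RPKM in Nrdc-/-WT against 39496 and 40701 RPKM in Nrdc-/- iMEF for the ribosomal proteins. Of 26 NRF2 and redox genes, 5 rose and 6 fell, or 6 and 6 when libraries were centred on their median. Hmox1, heme oxygenase 1, was at 29.4 and 28.1 RPKM in Nrdc-/-WT against 109 and 113 RPKM in Nrdc-/- iMEF (log2 difference -1.94 ± 0.06 SE, limma adjusted p = 1.42e-07), while Prdx1, a peroxiredoxin, rose by 0.81.

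Developmental and imprinted genes had no common direction. Of 27 tested transcription factors of mesenchymal and organ development, 9 rose and 8 fell, and of 11 tested Hox genes 2 rose and 2 fell. Osr1, a factor of connective tissue, was at 25.1 and 25.9 RPKM in Nrdc-/-WT against 78.2 and 83.2 RPKM in Nrdc-/- iMEF, a fall by 1.65, and Prrx2, a mesenchymal homeobox factor, was at 69.1 and 68.9 RPKM against 21.2 and 21.1 RPKM, a rise by 1.697. Of 12 tested imprinted genes, 4 rose and 5 fell. Besides Dlk1 they include Peg10, a gene of retroelement origin, at 258 and 250.4 RPKM in Nrdc-/-WT against 58.1 and 57.7 RPKM in Nrdc-/- iMEF, and Peg3, a zinc finger gene, at 2.57 and 2.78 RPKM against 10.4 and 10.6 RPKM. Hmga2, an architectural chromatin protein of embryonic and proliferating cells, was at 8.41 and 8.03 RPKM against 1.68 and 1.56 RPKM, a log2 fold change of 2.18, and Hmga1 rose by 1.49.

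Of 12 fibroblast markers, 9 were tested, and Fap, Thy1 and Lum were below the filter. Of the 9 tested, 2 rose, 1 fell and 6 were not called, with a median of 0.02. Vim and Twist1 rose, by 0.88 and 1.17 on the log2 scale, and Dcn fell by 3.83. The summed level of the list was 3326 and 3338 RPKM in Nrdc-/-WT against 2682 and 2663 RPKM in Nrdc-/- iMEF. Vim, vimentin, was the most abundant and weighs most in that sum, at 2118 and 2074 RPKM against 1132 and 1147 RPKM. Of 13 epithelial markers none reached the filter, with a summed level of 1.14 and 1.21 RPKM in Nrdc-/-WT against 0.618 and 0.357 RPKM in Nrdc-/- iMEF, nor did any of 10 endothelial markers, at 1.08 and 1.15 RPKM against 0.196 and 0.193 RPKM. Of 13 haematopoietic markers 2 were tested, Lyz2, which fell by 2.48, and Cd68, which rose by 1.06 but was not called at 0.89 without Nrdc-/-WT replicate 1. The list summed to 2.49 and 1.92 RPKM against 4.49 and 4.55 RPKM. Some markers of other lineages were expressed and differed, without a common direction within a list. Of the adipocyte markers only 1 was tested, Fabp4, at 0.221 and 0.168 RPKM against 2.72 and 3.204 RPKM. Of 4 tested cartilage and bone markers, 1 rose and 2 fell. The chondrocyte factor Sox9 was at 6.23 and 5.43 RPKM against 16.1 and 15.8 RPKM, while Col2a1 rose by 1.08. Of 4 tested neural markers, 2 rose and 1 fell. The neural progenitor filament Nes was at 26.6 and 29.3 RPKM against 5.19 and 4.98 RPKM, while Tubb3 fell by 0.72. The part of other cells in the results was not tested.

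The direction of change also depended on where a gene lies. On chromosome 1, 320 of 633 tested genes were lower and 62 higher, with a median log2 fold change of -0.40. That median was between -0.41 and -0.38 in each of the 4 pairs of an Nrdc-/-WT with an Nrdc-/- library, and all 25 windows of neighbouring genes along the chromosome had a median below 0, from -0.54 to -0.24. On chromosome 4, 298 of 707 genes were higher and 115 lower, with a median of 0.28. Between replicates of a group the chromosome medians differed by 0.054 at most. Over the other chromosomes the medians ran between -0.19 on chromosome 9 and 0.18 on chromosome 15.

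**Figure D4:**
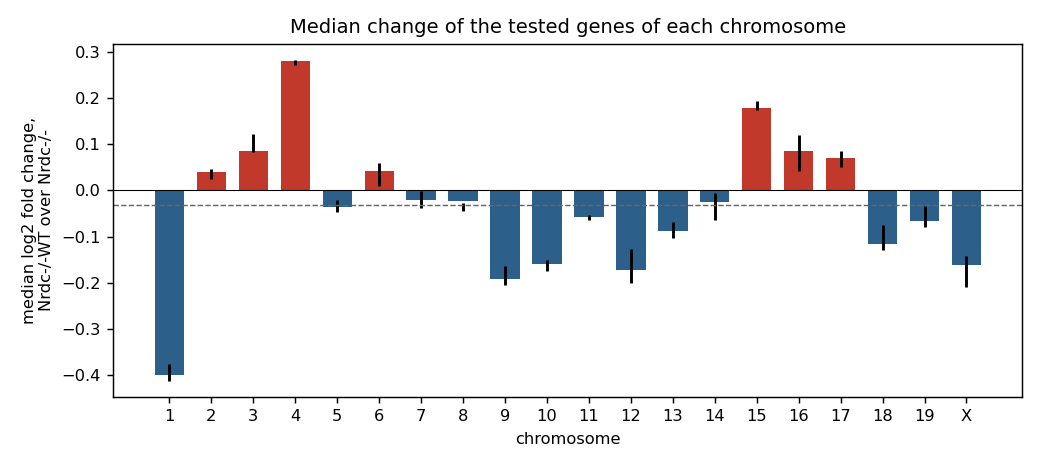
Median log2 fold change of Nrdc-/-WT over Nrdc-/- iMEF of the tested genes on each chromosome (bars), with the range of that median over the 4 pairs of libraries (black lines) and the median of all genes (dashed line). Chromosome 1 at -0.40 and chromosome 4 at 0.28 stand apart from the rest by more than the range of their library pairs.

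On several chromosomes the level differed between a first and a last stretch. The border on each chromosome was placed where the summed distance of genes from the median of their own side was smallest. At least 50 genes were kept on each side, and in the search the absolute log2 fold change of a gene was limited to 1. The border was thus chosen on the values themselves, which are a description with no test. On chromosome 4, 575 genes from Tmem68 to Epha2 (chr4:3476188-140885299 of mm9) had a median of 0.39, with 287 higher and 48 lower, and 132 genes from Zbtb17 to Klhl17 (chr4:141000569-155608966) had a median of -0.38, with 11 higher and 67 lower. On chromosome 16, 159 genes from Zfp263 to Dnajb11 had a median of -0.35, with 12 higher and 73 lower, and 212 genes from Fetub onward (chr16:22918455-98231165) had a median of 0.34, with 100 higher and 14 lower. On the X chromosome, 257 genes up to Pcdh19 had a median of 0.02, and 124 genes from Tspan6 to Mid1 (chrX:130425607-166443668) a median of -0.64, with 9 higher and 83 lower. On chromosome 14 the first 75 genes, up to Ccdc66, had a median of -0.38 and the rest 0.06, and on chromosome 3 the first 136, up to Tiparp, had -0.24 and the rest 0.18. Nrdc lies in the segment of chromosome 4 that was higher. DNA copy number was not measured in these files, and its part in the segments was not tested.

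**Figure D5:**
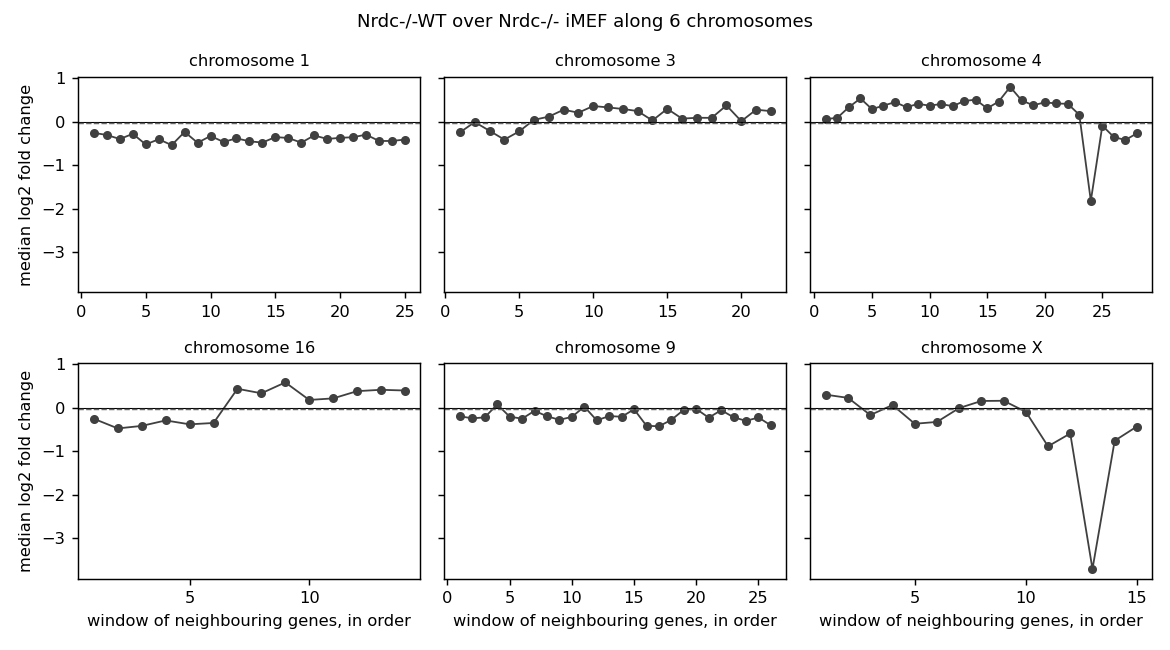
Median log2 fold change of Nrdc-/-WT over Nrdc-/- iMEF in consecutive windows of about 25 neighbouring tested genes, in their order along 6 chromosomes (points), with the median of all genes dashed. Chromosome 1 lies below 0 in all 25 windows, chromosomes 4, 16 and X change level along their length, and the lowest windows are at -1.82 on chromosome 4 and -3.70 on the X chromosome.

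When the running median of 51 neighbouring genes was taken off each gene's log2 fold change, an alternative chosen after the data had been seen, 2246 genes were higher and 2176 lower, and 3725 of the 4965 calls (75.0%) kept their direction. The ER chaperones then had 23 lower and 0 higher, the ATF4 response 20 lower and 1 higher, cholesterol synthesis 19 lower and 0 higher, and the contractile genes 20 higher and 1 lower. Mitosis had 17 higher and 0 lower. Among the lists with more rises, TGF-beta and BMP had 17 higher and 3 lower, Wnt 11 and 1, and the YAP and SRF targets 10 and 0. Other lists moved more. The collagen chains had 8 higher and 5 lower, the matrix proteases and inhibitors 3 and 3, NRF2 and redox genes 2 and 5, oxidative phosphorylation 1 and 7, ribosomal proteins 7 and 1, and fatty acid synthesis 0 and 8. Of the fibroblast markers 5 were then higher and 1 lower, and of the p53 list 1 was higher and 6 lower.

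Inside the segments, clusters of related genes fell far below their surroundings. On the X chromosome 12 neighbouring genes from Gm15128 to Gm15091, among them Luzp4 and Ott, fell together, with a median log2 fold change of -4.43. Their summed level was 1.10 and 1.45 RPKM in Nrdc-/-WT against 97.8 and 91.6 RPKM in Nrdc-/- iMEF, and 0 in both Nrdc+/+ libraries. Of the Rhox2 genes, homeobox factors of reproductive tissue in the mouse, Rhox2h was at 0.241 and 0.0688 RPKM in Nrdc-/-WT against 25.3 and 27.5 RPKM in Nrdc-/- iMEF (log2 difference -6.07 ± 0.21 SE, limma adjusted p = 2.54e-07), and Rhox2a, Rhox2d and Rhox2g had 0 reads in both Nrdc-/-WT libraries against levels up to 3.34 and 2.57 RPKM. Nxf3, an RNA export factor gene of the X chromosome, was at 3.09 and 2.83 RPKM against 63.9 and 55.4 RPKM, a log2 fold change of -4.22. The X chromosome held 41 of the 183 genes that were at least 4-fold lower (22.4%), with 3.32% of the genes tested. Close copies within these families can share reads, so values of single members are uncertain.

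Clusters also fell on autosomes. On chromosome 4, 19 neighbouring genes from Gm13242 to Gm13157, with the zinc finger genes Zfp600 and Zfp534, had a median of -2.14 and a summed level of 29.7 and 28.7 RPKM in Nrdc-/-WT against 135 and 118 RPKM in Nrdc-/- iMEF. On chromosome 14, 13 genes from Gm2832 to Gm5799 had a median of -2.10, with 21.1 and 17.5 RPKM in sum against 84.0 and 81.7 RPKM. In the opposite direction, 13 neighbours on chromosome 15 from Pycrl to Oplah, which include the cytolinker gene Plec, had a median of 0.87, and they summed to 363 and 364 RPKM in Nrdc-/-WT against 213 and 227 RPKM in Nrdc-/- iMEF. A run of 12 genes of chromosome 1 with the chaperonin pair Hspd1 and Hspe1 had a median of -0.69.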

How the data were processed

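RNA of asynchronously growing iMEF was sequenced, with 2 libraries each of Nrdc-/-WT, Nrdc-/- and Nrdc+/+ cells. Per the labels and methods the authors aligned reads to mm9 and made the deposited log2 RPKM values with edgeR, with a small constant added. The submitters' processing notes name STAR, Bowtie2 and featureCounts of Subread. The constant was taken off to give RPKM, and 100% of low values then came out as whole reads within 0.05 read. The design had assumed linear RPKM. Fold changes are on the scale of log2(RPKM + 0.25), which understates low genes. limma 3.58.1 in R 4.3.3 was fitted to all 6 libraries with a mean-variance trend, for genes that averaged 0.5 RPKM or more over the 4 libraries compared, and p-values were adjusted by the Benjamini-Hochberg method over all 11476 genes. Calls rest on an adjusted p below 0.05 with a change of 1.3-fold or more. The code was tested on simulated data.

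Named by rule were Nrdc, the 15 largest rises and falls at 5 RPKM or more without overlap, up to 5 members a list with the largest change, genes without reads in both libraries of a group, genes within 1 Mb of Cdkn2a and the longest runs of neighbours. Other members are named for their role, with values known. Members and lists were chosen with earlier results of these data known. Promoters of chromosome 18 were not used here. Some genes, 1 of the 15 largest rises among them, are not reported here by name. For 6 listed names no symbol matched, in part because the table uses older ones (Jub for Ajuba), so they are not counted in their lists, though any that passed the filter were among the genes tested. The main fit did not treat libraries with the same replicate number as pairs, and the labels do not say whether they are. Deviations within the groups had a correlation of -0.007 between Nrdc-/-WT and Nrdc-/-, which cannot settle it with 2 libraries a group. Alternatives were other pseudocounts, filters, scalings, thresholds and libraries, and limma-voom on the recovered reads.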

Additional observations from a re-analysis of the deposited data

How the results depend on the processing

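Requiring a change of 2-fold left 730 genes higher and 656 lower, fewer by construction. The other alternatives kept both counts within 1.5 times. They were pseudocounts of 0.05 and 1 RPKM, the deposited log2 values, no filter or a filter of 2 RPKM, the 4 libraries alone, median-centred libraries, no trend, an adjusted p under 0.01, limma-voom on whole reads (2607 higher and 2431 lower) and the running median of neighbouring genes taken off. With 1 library left out at a time, 2142 to 2217 genes were higher and 2379 to 2587 lower, and the log2 fold change of Nrdc lay between 1.675 and 1.797. With the replicate block 2316 genes were higher and 2650 lower, and 4932 of the 4965 calls were shared. No call turned its direction under the running median, where 697 further genes were called.

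Of the genes named, only some that were not called changed sign. With the running median taken off, Cdkn1b had a log2 fold change of -0.075, Cdkn2c -0.38, Srebf2 -0.067, Erbb2 -0.0032, Zfp263 0.13 and Zfp57 -0.016. BC057079 had 0.033 with median-centred libraries and 0.033 by limma-voom. With 1 library left out at a time, BC057079 ranged from -0.058 to 0.036, Cdkn1b from -0.024 to 0.091, Cdkn2c from -0.033 to 0.14, Col3a1 from -0.039 to 0.089, Pdgfra from -0.032 to 0.081 and Zfp57 from -0.017 to 0.13. Calls that ended with the running median taken off were those of Actb at 0.33, Adam17 at -0.25, Fasn at -0.29, Klhl9 at 0.19, Prdx1 at 0.34, Tagln2 at -0.13, Tgfb2 at -0.27, Hspd1 and Hspe1 at -0.26, Gm13157 at -0.30 and 4 genes at the borders of segments, while Col1a1 at 0.48, Col3a1 at 0.40 and BC057079 at -0.42 were then called. Genes with few reads, such as Slc2a5 in Nrdc-/-WT or Col4a1 in Nrdc-/- iMEF, have fold changes that depend on the pseudocount.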
